A study of Mus musculus with 31 samples.

Results

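Accessible chromatin was described at 10 genes of the SRF and contractile cytoskeleton system in mouse fibroblasts: Srf, Acta2, Actg2, Tagln, Cnn1, Cnn2, Vcl, Myh9, Tpm1 and Tpm2. These genes were a list of names, 10 of 21938 protein-coding genes of the annotation, and the rule itself uses no measured value. Every ATAC-seq peak lying within 1 kb of any of their transcription start sites (TSSs), elsewhere in the gene or within 25 kb of the gene was collected, which gave 69 of the 63456 peaks of the list. The data came from 1 library of parental NIH-3T3, an established line of mouse embryonic fibroblasts, carrying no introduced transcription factor (TF) and no rtTA3G. The labels list no drug for these cells and a collection of 50000 cells, whereas the study's methods describe doxycycline at 500 ng/ml for 48 h for NIH-3T3 cells plated for ATAC-seq. The other 30 samples, which carried 1 of 13 TFs or rtTA3G alone, were not analysed here. There was therefore no replicate and no comparison between samples, and all intervals given below cover counting error only, for PCR-amplified fragments without molecular identifiers.

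SRF is a TF that binds a short palindrome called the CArG box, made of 2 C, then 6 bases that are each A or T, then 2 G. It works with cofactors of the myocardin family, whose MRTF members are held in the cytoplasm by monomeric actin and enter the nucleus when actin polymerises, and with ternary complex factors of the ETS family such as Elk1. Its known targets include immediate-early genes, Srf itself, and genes for actins, actin-binding proteins and focal adhesion proteins. Smooth muscle alpha actin (Acta2), smooth muscle gamma actin (Actg2), transgelin (Tagln) and the smooth muscle calponin (Cnn1) are classical smooth muscle genes, and fibroblasts can express some of them as they take on contractile features. Calponin 2 (Cnn2), vinculin (Vcl), non-muscle myosin heavy chain IIA (Myh9) and the tropomyosins (Tpm1, Tpm2) are made in a broader range of cells.

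In ATAC-seq, Tn5 transposase cuts accessible DNA and the fragments pile up there. Each peak has a fold enrichment, the pileup at the summit divided by the pileup expected locally with 1 added to each, and a −log10 q for that excess. Fragments at each summit are not among the deposited columns and were solved from them. Over the whole list the summits held a median of 29 fragments, with quartiles of 19 and 52, and a median fold enrichment of 6.04. Where the expected pileup was at its genome-wide level of 2.81 fragments, the lowest summit in the list held 10 fragments at a fold enrichment of 2.89. Weaker accessibility than that was not detectable at this depth, so a gene without a peak cannot be called closed. Since the cells were lysed in bulk, a site open in few cells and a site little open in many cells cannot be told apart. Cell type markers were looked up at TSSs, where 53.7% of all protein-coding genes had a peak. Such a peak was present at 8 of 8 fibroblast markers (fold enrichment 3.41 to 10.5). The lowest, Thy1, held 12 fragments. Markers of other cell types had one in 3 of 10, which were Krt8 (3.25) and the endothelial genes Pecam1 (8.40) and Cdh5 (12.8). Cdh5 stood above every fibroblast marker, so peaks at TSSs alone do not establish the cell type.

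The sequences that carry the CArG boxes are shown first, because the box is the sequence SRF is known to bind. The proximal promoters of Srf, Cnn2 and Vcl each held an exact box, and that of Cnn1, which held none, is shown for contrast. The promoters of Acta2, Myh9, Tpm1 and Tpm2, not shown, also held no exact box in the 300 bases taken as promoter. The promoters are given 5′ to 3′ on the strand of the gene, numbered from the RefSeq start (base −1 lies just before it), on GRCm38, the same build as mm10. Distances from the gene start use the annotated start instead, which lay 0 to 217 bp before the RefSeq start. RefSeq promoter sequences matched 8 of the 10 genes, without Actg2 and Tagln. Capitals mark the CArG boxes, and in Srf also the last of the 3 marked stretches, which matches the box with 1 mismatch.
Srf, chr17:46556176-46556312, minus strand, bases −150 to −14: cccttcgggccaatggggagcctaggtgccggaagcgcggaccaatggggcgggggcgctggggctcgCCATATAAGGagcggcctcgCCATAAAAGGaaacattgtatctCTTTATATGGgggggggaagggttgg
Cnn2, chr10:79988450-79988583, plus strand, bases −150 to −17: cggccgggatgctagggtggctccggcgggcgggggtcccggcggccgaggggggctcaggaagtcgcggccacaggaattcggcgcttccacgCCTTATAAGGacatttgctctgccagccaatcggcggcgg
Vcl, chr14:20929148-20929397, plus strand, bases −250 to −1: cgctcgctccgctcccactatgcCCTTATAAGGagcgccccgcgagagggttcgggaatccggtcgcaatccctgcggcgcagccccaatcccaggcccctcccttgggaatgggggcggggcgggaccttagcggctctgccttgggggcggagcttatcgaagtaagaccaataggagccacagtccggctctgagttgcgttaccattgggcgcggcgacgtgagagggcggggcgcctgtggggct
Cnn1, chr9:22099103-22099215, plus strand, bases −150 to −38: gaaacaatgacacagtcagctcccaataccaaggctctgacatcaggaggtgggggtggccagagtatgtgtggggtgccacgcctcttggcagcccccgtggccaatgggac

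The remaining exact boxes lay farther from the outermost annotated start of their gene, inside peaks. They are given with 25 bases to either side on the strand of the gene, with the box in capitals, except the Acta2 upstream site, which is shown with 50 bases to either side of its summit because it also held the AP-1 sequence TGACTCA, again in capitals.
Srf, intron 2, chr17:46553328-46553387: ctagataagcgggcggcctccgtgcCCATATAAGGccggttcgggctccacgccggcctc
Acta2, 10245 bp upstream, chr19:34265785-34265885: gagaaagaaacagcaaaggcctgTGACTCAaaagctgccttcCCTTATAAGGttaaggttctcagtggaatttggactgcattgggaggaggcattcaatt
Acta2, intron 1, chr19:34254263-34254322: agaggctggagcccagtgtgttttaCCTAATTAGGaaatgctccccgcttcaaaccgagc
Myh9, 468 bp upstream, chr15:77842613-77842672: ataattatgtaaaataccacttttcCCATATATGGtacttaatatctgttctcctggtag
Myh9, intron 3, chr15:77798911-77798970: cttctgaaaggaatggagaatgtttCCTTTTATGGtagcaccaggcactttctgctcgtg
Myh9, intron 3, chr15:77800647-77800706: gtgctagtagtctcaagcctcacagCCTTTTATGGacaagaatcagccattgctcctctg

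Of the 10 genes, 7 had a peak within 1 kb of a TSS: Srf, Acta2, Cnn2, Vcl, Myh9, Tpm1 and Tpm2. No peak overlapped Actg2, Tagln or Cnn1. The share of 70% had a Wilson 95% interval of 39.7% to 89.2%, and among all protein-coding genes 53.7% had such a peak, so the genes' share could not be set apart from the background. A peak anywhere in the gene was likewise present in 7 of the 10 genes and in 63.2% of all protein-coding genes. Srf, Tpm1 and Tpm2 each had 2 peaks within 1 kb of a TSS. These 3 of 10 genes gave an interval of 10.8% to 60.3%, which contains the background of 13%. In all, 10 of the 69 peaks were promoter peaks in this sense, 20 lay elsewhere in a gene and 39 lay in the flanks.

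**Figure D1:**
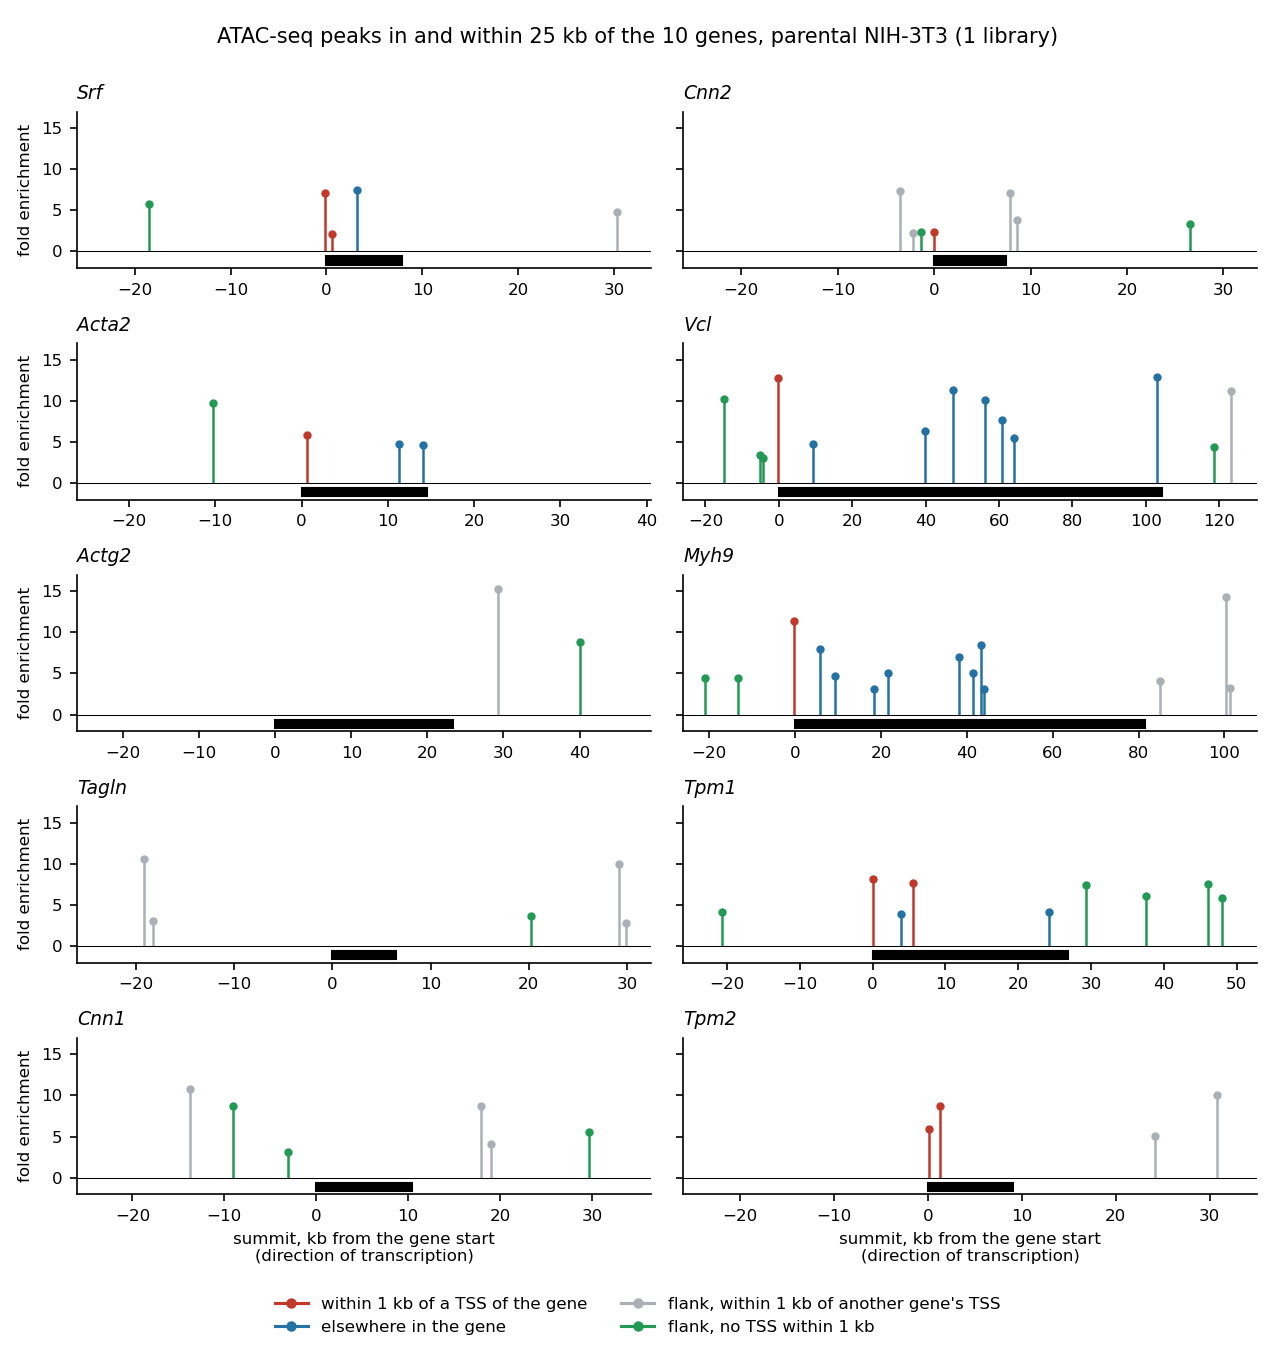
ATAC-seq peaks in and around the 10 genes. Each stem is a peak, placed by the distance of its summit from the gene start in kb (x axis, direction of transcription) with its fold enrichment as height (y axis); the black bar is the gene, and colours separate promoter peaks, other peaks in the gene, flank peaks within 1 kb of another gene's TSS and the remaining flank peaks. Vcl and Myh9, the longest of the genes (104279 and 81589 bp), held 7 and 8 peaks in the gene beyond the promoter. Cnn2 and Tpm2 held none beyond the promoter, and Actg2, Tagln and Cnn1 held none in the gene.

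The gene for the factor itself, Srf, had its main promoter peak at chr17:46555837-46556738. It covered the TSS, with the summit 155 bp upstream, and stood at 7.05-fold over the expected pileup with a −log10 q of 38.1 and 77 fragments (exact Poisson 95% interval 60.8 to 96.2) where 10.1 were expected. This fold enrichment stood at percentile 23.1 of the 11788 protein-coding genes with a promoter peak. The exact boxes printed above began 82 and 62 bp before the RefSeq start, 20 bp apart, and the imperfect box began 39 bp before it, so that the 3 stretches lay between 90 and 133 bp from the summit and inside the peak. The TATAAA sequence, the core of a TATA box, matched within the imperfect box on the opposite strand, 38 bp before the start. A small peak with its summit in a coding exon (chr17:46555472-46555616) was at the limit of the list, at 2.15 with a −log10 q of 1.75 and 23 fragments where 10.2 were expected. A peak in intron 2 (chr17:46552826-46553402) was higher than the promoter in value, at 7.49 with a −log10 q of 44.4 and 86 fragments (68.8 to 106), and its counting interval overlapped that of the promoter. Its edge lay 1033 bp from the nearest TSS of Srf, just beyond the 1 kb limit, and within 1 kb of the annotated start of the microRNA gene Mir6976. The box printed for this intron lay 393 bp from the summit, near the edge of the peak, and had the same 10 bases, CCATATAAGG, as the first of the promoter boxes. Srf lies within the lincRNA gene Gm26904 on the opposite strand, and ATAC-seq does not tell strands apart. The flanks held 1 distal peak, 18545 bp upstream in Ptk7 and Gm26904, at a fold enrichment of 5.81, and a peak of 4.85 at a start of Cul9.

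The smooth muscle actins differed from each other in whether any peak was listed in the gene. The peak of Acta2 (chr19:34254249-34255807) was the broadest promoter peak of the set at 1559 bp and lay within 1 kb of both annotated starts, but it was low, at 5.80 with a −log10 q of 14.98 and 34 fragments (23.5 to 47.5) where 5.04 were expected, percentile 14. Its summit lay 610 bp inside the gene, in intron 1. The RefSeq promoter of Acta2 held no exact CArG box. It held 2 stretches with 1 mismatch, CCCTATATGG beginning 84 bp and CCTTGTTTGG beginning 34 bp before the RefSeq start, both inside the peak and 473 and 423 bp from its summit. That start lies 217 bp inside the annotated gene start, so their centres lay 137 and 187 bp inside the gene. The exact box in intron 1, CCTAATTAGG, lay 687 bp from the summit at the far edge of the same peak. This box (chr19:34254288-34254297) lay just upstream of the inner annotated start of Acta2, at chr19:34254230. The highest peak near Acta2 lay upstream, between genes (chr19:34265543-34266050), at 9.70 with a −log10 q of 32.9 and 50 fragments (37.1 to 65.9), and its interval overlapped that of the promoter. There the CArG box CCTTATAAGG was centred 4 bp from the summit, with TGACTCA ending 12 bases before it, as the printed sequence shows. The remaining peaks in Acta2 lay in intron 7 (4.76, 20 fragments) and in the non-coding part of an exon near the end of the gene (4.56, 19 fragments).

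Actg2 had no peak among its 6 annotated starts or in its 23361 bp. The nearest peak lay 19559 bp from a TSS of Actg2, downstream of the gene at the start of Dguok, the mitochondrial deoxyguanosine kinase gene, with a fold enrichment of 15.3 and 122 fragments (101.3 to 145.7). The second flank peak lay within Dguok at 8.82. Actg2 thus had no listed peak that was nearer to it than to another gene's start.

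Among the genes for actin-binding proteins, Tagln and Cnn1 had no peak in the gene. The 5 flank peaks of Tagln began 18174 bp from its nearest start, and 4 of the 5 lay within 1 kb of starts of Pcsk7, Rnf214, Sidt2 or A830035O19Rik, at 2.82 to 10.6. The remaining peak, in Pcsk7, was low at 3.68 with 14 fragments (7.65 to 23.5). Cnn1 differed in that peaks were listed closer to it. A small peak lay 2990 bp before the gene (chr9:22096110-22096226; 3.13, −log10 q 2.29, 11 fragments), and a larger one lay 9024 bp upstream between genes (chr9:22089913-22090376) at 8.69 with a −log10 q of 31.3 and 52 fragments (38.8 to 68.2), holding TGACTCA. The next highest distal peak in the flanks of Cnn1, 19180 bp beyond the end of the gene, was at 5.59 and held TGACTCA at 2 places. It lay within other genes, Acp5 and 6530413G14Rik, 1592 bp from the nearest TSS of any gene.

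By the highest promoter peak of each gene, Cnn2 had the lowest fold enrichment of the set, with only the small Srf peak below it. Its peak (chr10:79988596-79988805) covered 210 bp from just inside the start and stood at 2.36 with a −log10 q of 3.47 and 32 fragments (21.9 to 45.2) where 13.0 were expected, which placed it at percentile 0.0254 of the genes with a promoter peak. The number of fragments was close to that at Acta2 (34), and the lower fold enrichment came with the largest expected pileup among the promoter peaks. The expected pileup stayed between 12.7 and 12.9 over the 3 peaks next upstream, at 7.35, 2.23 and 2.39, the first of them at a start of Tmem259 with 100 fragments. The exact box of Cnn2, CCTTATAAGG, began 56 bp before the RefSeq start and ended 43 bp before the first base of the peak, so it lay outside the listed interval, which took in 54 of the 300 promoter bases.

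Vcl, which links integrin adhesions to actin, had the highest promoter fold enrichment of the set. The peak (chr14:20928860-20929973) had its summit 166 bp upstream of the TSS and stood at 12.7 with a −log10 q of 94.95 and 130 fragments (109 to 154) where 9.28 were expected, percentile 78.1. Its exact box, CCTTATAAGG, began 227 bp before the start and lay 56 bp from the summit. The Vcl promoter also held GGGCGG, the core of the GC box bound by Sp factors, at 4 places and GGAATG, the core bound by TEAD factors, at 1. Within the gene, which spans 104279 bp, 7 further peaks had summits between 9338 and 102993 bp from the start. The highest, in the non-coding part of an exon near the end of the gene (chr14:21032085-21032613), was at 12.9 with 69 fragments (53.7 to 87.3), as high in fold enrichment as the promoter but with fewer fragments. The others were at 4.73 and 6.30 in introns 1 and 2, 11.3 (42 fragments) in intron 2, 10.1 (38 fragments) in a coding exon, and 7.71 and 5.52 in intron 6. Of these 7 peaks, those at 4.73, 11.3, 10.1 and 7.71 held TGACTCA at the summit, and those at 11.3 and 10.1 held GGAATG as well. Upstream, a peak at 10.2 (38 fragments) lay 14834 bp before the gene and peaks at 3.37 and 3.04 lay 5122 and 4375 bp before it.

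Myh9 had the most fragments at its promoter. The peak (chr15:77841805-77842790) had its summit 337 bp upstream and stood at 11.3 with a −log10 q of 92.7 and 137 fragments (115 to 162) where 11.2 were expected, percentile 65.0. Its exact box, CCATATATGG, lay 131 bp from the summit and beyond the 300 bases taken as promoter, which held no box but 6 GGGCGG sequences. The 8 further peaks in the gene formed a pair of groups, 4 in intron 1 at 3.16 to 7.998 and 4 in intron 3 within 6132 bp at 3.12 to 8.43. The highest of intron 3 (chr15:77798669-77799140; 8.43, −log10 q 58.8, 105 fragments, interval 85.9 to 127) and its neighbour (chr15:77800413-77800919; 5.04, 69 fragments, interval 53.7 to 87.3) each held the same box, CCTTTTATGG, 1736 bp apart and 53 and 25 bp from their summits. Of the 3185 protein-coding genes of at least 80 kb, the median held 4 peaks beyond the promoter and the upper quartile 8. By such peaks per 100 kb, Myh9 stood at percentile 98.5 of these genes and Vcl at 91.3. Among protein-coding genes of any length, by all peaks overlapping the gene per 100 kb, they stood lower, at 81.3 and 71.9.

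The tropomyosins, which lie along the actin filament, each had 2 peaks within 1 kb of a start. Tpm1 has 21 annotated starts, 20 of which had a peak within 1 kb, in clusters 5444 bp apart. The peak at the outer cluster (chr9:67048715-67049643) stood at 8.19 with a −log10 q of 28.4 and 49 fragments (36.3 to 64.8), and the peak at the inner cluster (chr9:67043612-67044194) at 7.69 with a −log10 q of 27.9 and 51 fragments (38.0 to 67.1). The counting intervals overlapped almost wholly, so no difference between the starts was detectable. The RefSeq promoter of Tpm1 held no exact box and 2 stretches with 1 mismatch, CCATATATAG at −221 and CCAAAAAAGT at −80, both inside the peak and 48 and 93 bp from its summit. The annotated gene start lies 193 bp before the RefSeq start. Counted from it, their centres lay 24 bp upstream and 117 bp inside the gene. Between the clusters lay a peak at 3.89 (30 fragments), 1157 bp from the nearest TSS, and near the end of the gene, in intron 8, a peak at 4.18 (16 fragments). Beyond the end of the gene, 4 peaks without any TSS within 1 kb stood at 5.82 to 7.5.

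Tpm2 had a peak at its starts (chr4:43523141-43523710; 5.88, −log10 q 15.2, 34 fragments, interval 23.5 to 47.5) and a higher one in intron 2 (chr4:43522133-43522680; 8.68, −log10 q 30.8, 51 fragments, interval 38.0 to 67.1), 708 bp from the nearest start. The intervals overlapped. Both peaks lay at the same cluster of starts, and 5 of the 6 annotated starts had a peak within 1 kb. Tpm2 had no distal peak, and its 2 flank peaks lay at starts of Arhgef39 (5.10) and of Ccdc107 and Rmrp (10.0). The intron 2 peaks of Tpm1 and Tpm2 are shown with 50 bases to either side of the summit because each held the AP-1 sequence there. The intron 8 peak of Tpm1 held it only farther from its summit and is not shown. Capitals mark the AP-1 sequence on whichever strand it matched (TGAGTCA is its reverse complement).
Tpm1, intron 2, chr9:67045423-67045523, minus strand: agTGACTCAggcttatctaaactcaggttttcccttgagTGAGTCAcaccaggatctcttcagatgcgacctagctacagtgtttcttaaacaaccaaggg
Tpm2, intron 2, chr4:43522423-43522523, minus strand: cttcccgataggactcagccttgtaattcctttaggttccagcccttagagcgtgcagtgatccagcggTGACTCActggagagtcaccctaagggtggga

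Ordered by fragments at the summit, the promoter peaks ran from Myh9 (137) and Vcl (130) through Srf (77), Tpm1 (51 and 49), the intron 2 peak of Tpm2 (51), Acta2 (34), the start of Tpm2 (34) and Cnn2 (32) to the small Srf peak (23). The intervals of Myh9 and Vcl overlapped, and those of Vcl and Srf did not. From Srf downward each peak overlapped its neighbour. The order by fold enrichment was another, with both Tpm1 peaks and the intron 2 peak of Tpm2 above Srf, since the expected pileup was 10.1 at Srf and 4.95 to 5.76 at the tropomyosins. The median of the highest promoter fold enrichment over the 7 genes was 8.19, beside 9.86 over all protein-coding genes with a promoter peak (quartiles 7.27 and 12.4).

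**Figure D2:**
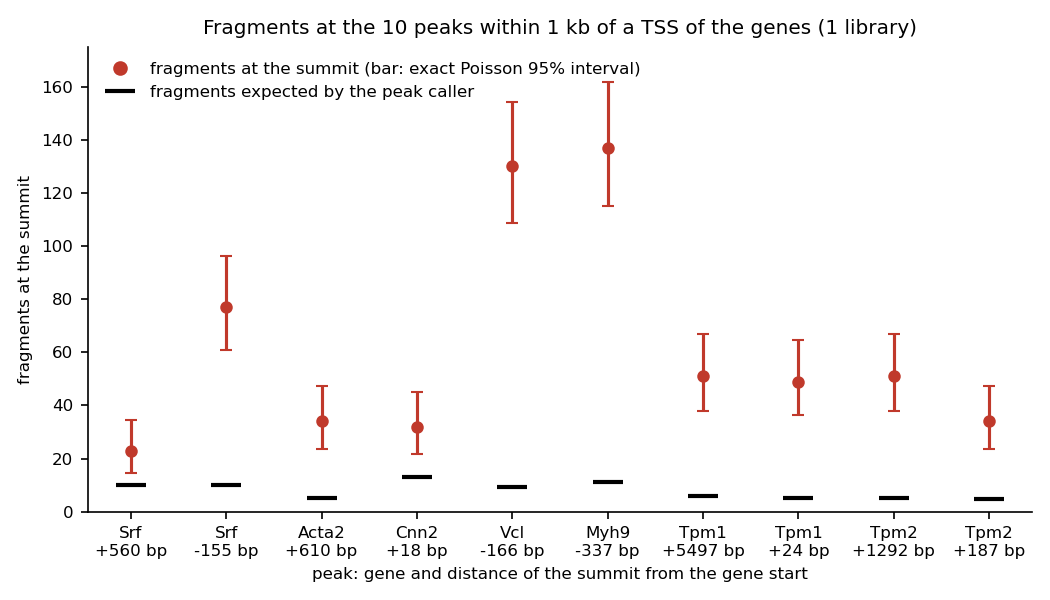
Fragments at the summit (y axis) of the 10 peaks within 1 kb of a TSS of the genes, named by gene and by the distance of the summit from the gene start (x axis). Points are the fragments with exact Poisson 95% intervals and black bars the fragments expected by the peak caller; Myh9 (137) and Vcl (130) stood above the other peaks, which held 23 to 77.

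**Figure D3:**
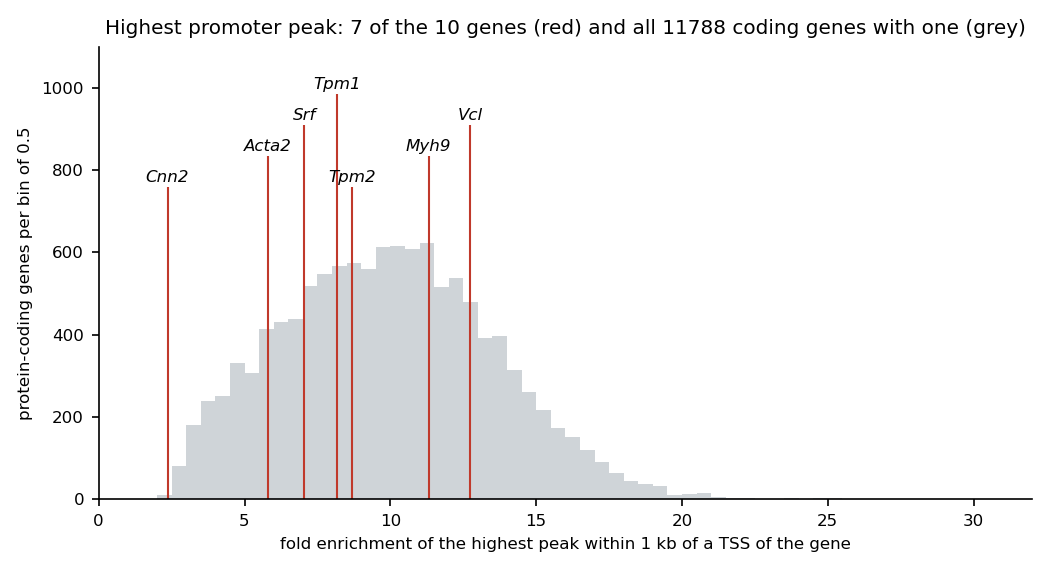
Highest fold enrichment within 1 kb of a TSS (x axis) for the 11788 protein-coding genes with a promoter peak, as the number of genes per bin of 0.5 (grey bars, y axis), with the 7 listed genes as red lines whose height has no meaning. Cnn2 (2.36) sat at the low end, and Vcl (12.7) lay above the upper quartile of 12.4.

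An exact CArG box occurred in 8 of the 69 peaks, which is 11.6% (Wilson 95% interval 5.99% to 21.2%), beside 2.15% of all peaks of the list. The 9 boxes of these peaks lay at Srf, Acta2, Vcl and Myh9, and none lay in a peak of the other 6 genes. Of the 10 promoter peaks, 4 held a box (40%, interval 16.8% to 68.7%), beside 2.61% of the 13923 peaks at starts of protein-coding genes. By gene, 4 of the 7 genes with a promoter peak had a box in it (57.1%, interval 25.05% to 84.2%), beside 3.4% of all protein-coding genes with one. Per 10 kb of sequence the promoter peaks of the genes held 6.63 boxes and those of all protein-coding genes 0.388, values that do not depend on peak width. In the distal peaks, those more than 1 kb from any TSS, the values were 2.65 and 0.604 per 10 kb. The former rests on only 3 boxes in 11308 bases, at Acta2 and in neighbouring intron 3 peaks of Myh9. Of the 8 genes with a promoter among the RefSeq sequences used, Srf, Cnn2 and Vcl had a box (37.5%, interval 13.7% to 69.4%), beside 1.52% of 21262 protein-coding promoters. Allowing 1 mismatch gave 5 of 8 promoters with Acta2 and Tpm1, beside 19.7% of all promoters. Over the 69 peaks the same allowance gave 19 with a match (27.5%, interval 18.4% to 39.0%), beside 25.5% of all peaks, so no difference was seen with the looser box. Promoters with at least 2 exact boxes numbered 5 among the 21262, and Srf was among them. The list is built around SRF, and several of its genes are textbook examples of CArG-regulated genes, so these shares describe the list and do not test it. A match is a stretch of letters, and SRF binding was not measured.

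**Figure D4:**
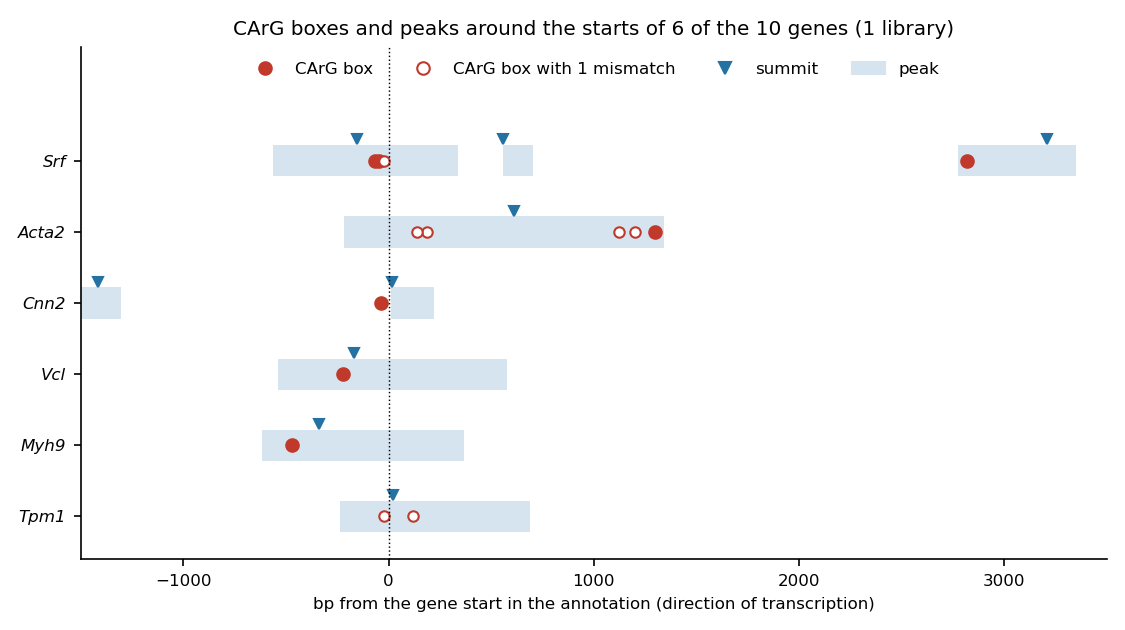
Peaks (pale bars), summits (triangles), CArG boxes (filled circles) and CArG boxes with 1 mismatch (open circles) by distance in bp from the annotated gene start, in the direction of transcription (x axis), at 6 genes (rows); boxes with 1 mismatch are drawn where found in promoters or peaks. The box of Cnn2 lay 43 bp outside its peak. Exact boxes in the promoter peaks of Srf, Vcl and Myh9 lay 56 to 131 bp from the summit, and that of Acta2 lay 687 bp from it.

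The promoters differed in base composition. The ratio of observed to expected CpG was 0.270 at Acta2 and 0.239 at Cnn1, below the coding median of 0.567, and 0.546 to 0.902 at the other 6 genes with a sequence. Of these CpG-poor promoters, Acta2 had a peak and Cnn1 had none. GGGCGG was found in 6 of 8 promoters, all but Acta2 and Cnn1, beside 46.2% of all coding promoters. TATAAA was found in Srf and Myh9, beside 12.6%, and GGAATG in Acta2, Vcl and Tpm1, beside 13.6%. No promoter of the 8 held TGACTCA, which 4.66% of coding promoters held. All motifs were searched on both strands, and a GGAATG match may overlap other motifs.

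The 39 distal peaks of the genes were described by AP-1 and TEAD sequences within 50 bases of the summit. AP-1 factors (Fos and Jun dimers) and TEAD factors are abundant in fibroblasts. TGACTCA occurred in 16 of the 39 (41.03%, interval 27.1% to 56.6%), beside 26.4% of the 47192 distal peaks of the list. By gene these were 5 of 11 at Vcl, 4 of 7 at Tpm1, 2 of 10 at Myh9, 2 of 3 at Cnn1, 1 of 3 at Acta2, and the single distal peaks of Srf and of Tagln, with none in the distal peaks of Cnn2 and Actg2. The lower bound lay just above the background, and among the peaks more than 5 kb from any TSS the share was 9 of 26 (34.6%, interval 19.4% to 53.8%), beside 26.8%, which lies within that interval. GGAATG occurred in 5 of the 39 (12.8%, interval 5.60% to 26.7%), beside 9.52% of all distal peaks, which lies within the interval. Peaks of 1 gene share a locus and are not independent.

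**Figure D5:**
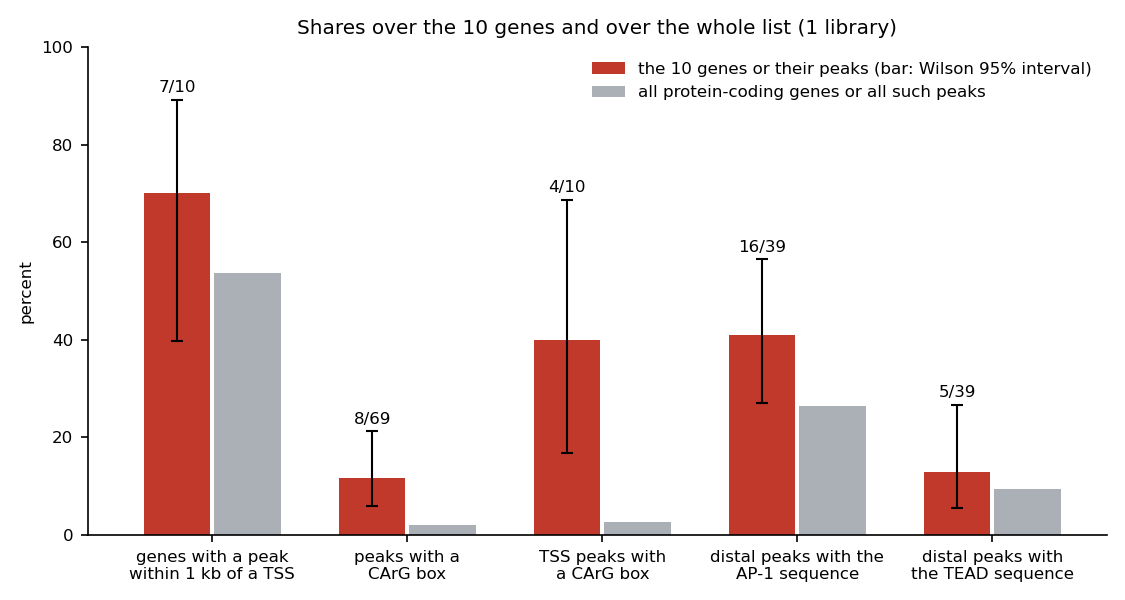
Percent of the 10 genes or of their peaks (red, with Wilson 95% intervals and counts above) and of all protein-coding genes or all such peaks (grey) that had the property named on the x axis. The CArG box was in 11.6% of the genes' peaks against 2.15% of all peaks, whereas the background share of genes with a promoter peak (53.7%) lay inside the interval of the 10 genes.

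The surroundings of the genes held 8.75 peaks per 100 kb in the median of the 10 genes with their flanks, beside 3.84 for all protein-coding genes (quartiles 1.38 and 6.97). Of the 39 flank peaks, 19 lay within 1 kb of a TSS of another gene, with a median fold enrichment of 7.08, and 20 did not, with a median of 5.04. Actg2 had the lowest density, 2.73, and Cnn2 the highest, 12.2, and the flank peaks of Cnn2 were mostly at starts of its neighbours (4 of 6). At the limits of the rule, the promoter peaks farthest from a TSS were those of Tpm2 (708 bp) and Srf (559 bp), and the nearest peaks outside were those of Srf (1033 bp) and Tpm1 (1157 bp). At 25 kb the outermost peaks inside lay 23438 bp from Tagln (2.82) and 22462 bp from Srf (4.85), and the next outside 25663 bp from Tagln (7.73) and 25891 bp from Vcl (6.83).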

How the data were processed

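ATAC-seq was performed on 1 library of parental NIH-3T3 cells with in-house Tn5 and 12 cycles of PCR, per the labels. The authors mapped reads to mm10, kept uniquely mapped reads, removed duplicates and called peaks on this library alone in paired-end mode. The submitters' processing notes name STAR 2.5.3a, Picard and MACS2 2.1.1.20160309. No shift of cut sites is described, so positions are those of whole fragments. The deposited columns are a fold enrichment (a ratio of pileups), −log10 p and −log10 q, and a score that was not used.

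Peaks were placed on GRCm38 with GENCODE M21, which are of the same build. Fragments at each summit were solved from the ratio and −log10 p by bisection. Of 63435 peaks solved, 99.998% came out within 0.02 of a whole number, and the procedure was tested on simulated data. Peaks with the highest −log10 p, none of them at the genes described, were left unsolved. The methods give a range of sequenced reads for the ATAC-seq libraries in general and no figure for this one. The reads kept after filtering are not in the peak list, so depth is described here by fragments at summits. CArG boxes and other motifs were searched on both strands with Python 3.11.15 scripts. Wilson and exact Poisson 95% intervals cover counting error only. With 1 library no test was made. Intron numbers follow 1 principal transcript a gene.

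Genes and lists were chosen with earlier results of these data known. All 10 genes are described. Of 40 other genes of the pathway lists, those named are paralogues, SRF cofactors, genes without a promoter peak and the 3 with the highest fold enrichment at a TSS. Smtn, Mylk and Des were named in addition, after their values were seen. Alternatives changed the distance limits, the q and fold minimum, and the motif window and mismatch. The 30 samples carrying TFs or rtTA3G alone were not analysed here.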

Additional observations from a re-analysis of the deposited data

How the results depend on the processing

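Of 34 alternative values, 27 stayed within 1.5 times the value reported within its counting interval or within the spread between the genes, and 7 moved; none reversed a direction. A minimum fold enrichment of 5 left 41 peaks and a median density of 5.25 per 100 kb, beside 2.45 for all protein-coding genes. Flanks of 10 kb gave 45 peaks and flanks of 50 kb gave 113. A CArG box within 50 bases of the summit was found in 2 peaks (0.567% of all peaks), and a box with up to 1 mismatch in 19 of 69 (27.5%, beside 25.5% of all peaks). Over all 69 peaks together, the difference therefore held for the exact box and not for the looser one. At promoters the looser box was in 5 of 8, beside 19.7% of all coding promoters. TGACTCA anywhere in the peak was found in 61.5% of the distal peaks, beside 40.8% of all distal peaks. Taking peaks more than 5 kb from any TSS narrowed the difference to 34.6% beside 26.8%. The number of genes with a promoter peak was 6 at a q of at most 1e-05 or a fold enrichment of at least 5, without Cnn2 in both cases, and 8 at 5 kb, with Cnn1 added. It was not tested why these values changed with the limits and motif settings. No paired analysis was possible because 1 library was analysed. A library left out could not be tried for the same reason, and differences between cultures were not measured.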

Other observations

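Of 40 other genes of the SRF and actomyosin pathway, 33 had a peak within 1 kb of a TSS (82.5%, Wilson 95% interval 68.1% to 91.3%), beside 53.7% of all protein-coding genes. The median of their highest fold enrichment was 7.82 (range 2.75 to 12.8), below the 9.86 of all protein-coding genes with a promoter peak. Of the 33, 8 had a CArG box in such a peak (24.2%, interval 12.8% to 41.02%), beside 3.4% of all protein-coding genes with one. The lists were chosen with earlier results known, and no test was made. The genes without a promoter peak were Myocd (myocardin, the muscle-restricted SRF coactivator), Acta1 and Actc1 (the skeletal and cardiac alpha actins), Myh14, Myl9, Tagln3 and Lmod1. The cofactors made more broadly had one, at 10.4 for Mrtfa, 11.6 for Mrtfb, 9.45 for Elk1, 5.91 for Elk4 and 3.77 for Elk3. Fhl2, a LIM-domain protein that binds SRF, stood at 11.7 with 131 fragments and had 2 promoter peaks that each held a box. The highest values were those of Tpm3 (12.8), Myh10 (12.3) and Cald1 (12.1).

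The paralogues of the 10 genes had a range of values. The cytoplasmic actin Actb had a promoter peak at 7.46 with 94 fragments and 2 boxes, and Actg1 had its highest at 2.75 with 1 box, and the muscle actins Acta1 and Actc1 had none. Cnn3 stood at 9.02 and Tagln2 at 6.79, beside no promoter peak at Cnn1 and Tagln. Tpm4 stood at 6.90. Myh11, the smooth muscle myosin heavy chain, had a small peak at 2.90 with 15 fragments. Some other genes linked to muscle had promoter peaks, at 8.51 for Smtn (smoothelin), 8.67 for Mylk (myosin light chain kinase) and 5.00 for Des (desmin). These genes were picked after their values were seen. Other muscle-linked genes of the same lists, Myocd, Acta1, Actc1, Myl9 and Lmod1, had none.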
